A study of Homo sapiens with 4 samples.

Results

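YAP, its paralogue TAZ, the 4 TEAD transcription factors and 4 of their target genes were followed in AGS cells carrying an shRNA against MFAP2. The 10 genes were found by name in a table of 47251 genes: the coactivator genes YAP1 and WWTR1, which encodes TAZ, the genes TEAD1, TEAD2, TEAD3 and TEAD4, and the target genes CYR61, CTGF, AMOTL2 and ANKRD1. All 10 were present once, and all 10 passed the filter on low values, a mean of 1 FPKM or more.

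YAP and TAZ are coactivators that do not bind DNA by themselves and act through the TEAD proteins, which bind a short motif in promoters and enhancers. In the Hippo pathway the kinases MST1 and MST2 (STK4 and STK3) activate LATS1 and LATS2, which phosphorylate YAP and TAZ, so that these are held in the cytoplasm by 14-3-3 proteins or degraded. Cell contact, attachment to the matrix and tension of the actin skeleton act on this pathway mainly through phosphorylation and location of the proteins, which an mRNA measurement does not see. The mRNA of CYR61, CTGF, AMOTL2 and ANKRD1 is commonly read as the output of YAP, TAZ and TEAD.

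AGS is an established line from a human gastric adenocarcinoma. MFAP2 encodes a protein of extracellular microfibrils, and the study silenced it with a lentiviral short hairpin RNA (labelled sh-MFAP2). Total RNA was sequenced from 2 sh-MFAP2 libraries and from 2 libraries of AGS cells with a scrambled hairpin (labelled sh-control, here control). All cells were infected and puromycin-selected populations grown in DMEM with serum, and one hairpin stands for the knockdown. The labels do not say whether the replicates were separate cultures, so p-values measure only the spread between these libraries, which may be technical.

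The deposited values are taken as FPKM, fragments scaled by transcript length and library depth. MFAP2 itself had 0 FPKM in each sh-MFAP2 library and 0.0116 and 0.0138 FPKM in the controls, too low to check the labels. The steps between low values implied about 54700000 to 74800000 reads per library. The epithelial keratins KRT8, KRT18 and KRT19 had means of 761, 658 and 260 FPKM, while CDH1, which encodes E-cadherin, had 0.584 to 1.25 FPKM. All 3 endothelial markers, 5 of 6 fibroblast markers and 2 of 4 leukocyte markers had means under 0.1 FPKM. The exceptions were COL1A1, CD68 and LYZ. COL1A1 had 2.27 and 2.07 FPKM with sh-MFAP2 against 4.36 and 4.92 FPKM in control. CD68 had 3.13 and 3.12 FPKM against 7.85 and 7.20 FPKM. LYZ had 85.5 and 579 FPKM with sh-MFAP2 and 89.3 and 369 FPKM in control, higher in replicate 2 of both groups. The summed fibroblast markers thus ran from 2.12 to 2.34 FPKM with sh-MFAP2 and from 4.39 to 4.96 FPKM in control, and the part of these genes in the results below was not tested.

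All 10 genes were expressed, with mean levels from 1.04 to 78.4 FPKM. The mean gene value over the 4 libraries was 78.4 FPKM for CTGF, which encodes a secreted matricellular protein, and 47.4 FPKM for ANKRD1, which encodes a nuclear and sarcomeric ankyrin repeat protein. TEAD2 followed with 25.9 FPKM. TEAD4, YAP1 and CYR61 had 19.4, 16.7 and 13.6 FPKM, with ranges over the libraries that overlapped between neighbours in this order. TEAD3, AMOTL2 and TEAD1 had 8.54, 5.50 and 3.06 FPKM, again with ranges that overlapped between neighbours, and WWTR1 was lowest with 1.04 FPKM. The order of some genes depended on how a gene's length is taken. The gene value of WWTR1 corresponds to its transcripts, weighted by length and summed, over a gene length of about 8316 bases, whereas its main transcript has 2103 bases, and the plain sum of its transcripts was 4.27 FPKM. For TEAD1 the sum was 9.17 FPKM, above the sums of TEAD3 (8.89 FPKM) and AMOTL2 (7.71 FPKM), and for YAP1 it was 28.1 FPKM, level with TEAD4 (27.8 FPKM).

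**Figure D1:**
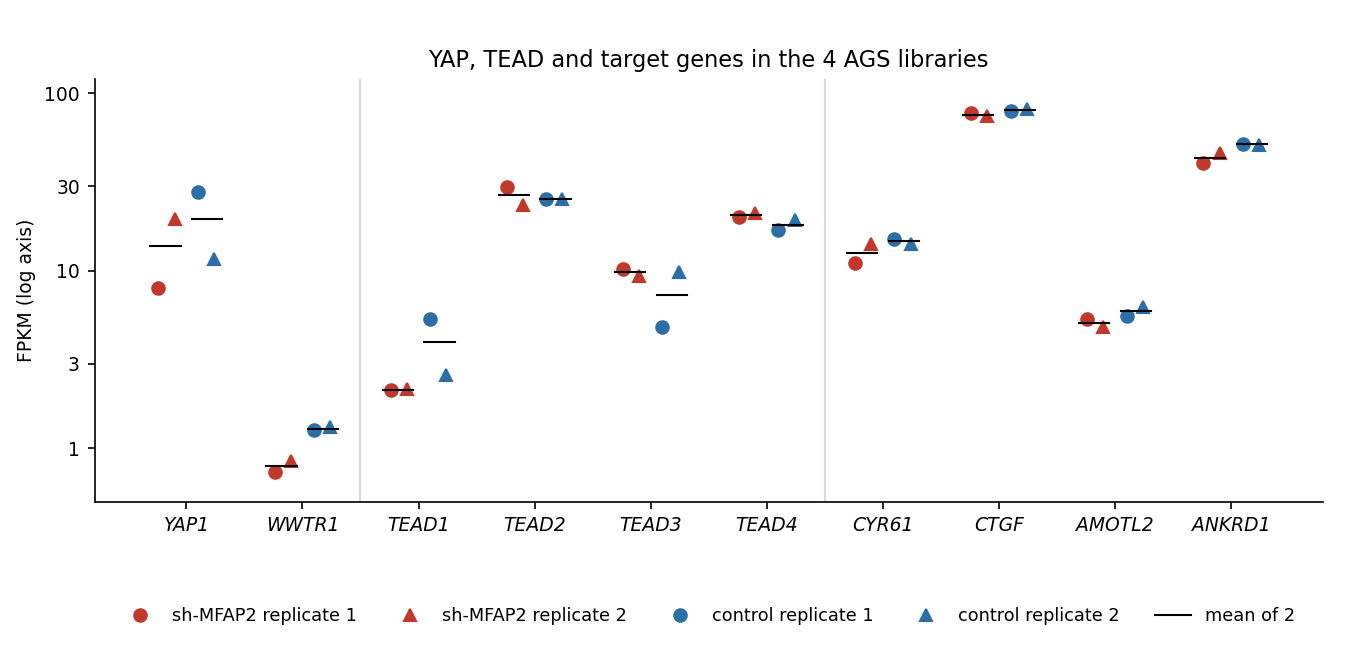
FPKM of the 10 genes (log axis) in each of the 4 libraries, red for sh-MFAP2 and blue for control, circles for replicate 1 and triangles for replicate 2, with a line at the mean of each group. YAP1 spread from 8.01 to 27.7 FPKM with the groups interleaved, whereas CTGF stayed between 74.0 and 81.9 FPKM.

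Between sh-MFAP2 and control, no member passed the thresholds of p under 0.01 and adjusted p under 0.05 in limma, which 27 of the 9873 genes tested (0.273%) did. The lowest adjusted p among the members was 0.394, for WWTR1. WWTR1 was also the 1 member of 10 with an unadjusted p under 0.05, compared with 12.3% of all genes tested. In 6 members (WWTR1, TEAD1, CYR61, CTGF, AMOTL2 and ANKRD1) both sh-MFAP2 libraries lay below the controls, compared with 31.4% of all genes, and in TEAD4 alone both were above, compared with 17.5%. The median log2 fold change of the 10 members was -0.20, and that of all genes tested was -0.05. With 2 libraries per group, an exact two-sided permutation test of a single gene cannot go below p = 0.333, so the p-values given here depend on the variance that limma shares across genes. Fold changes are on the scale of log2(FPKM + 1), sh-MFAP2 minus control, which understates the change of low genes such as WWTR1. In bulk RNA, less transcript in every cell and fewer cells holding it cannot be told apart.

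**Figure D2:**
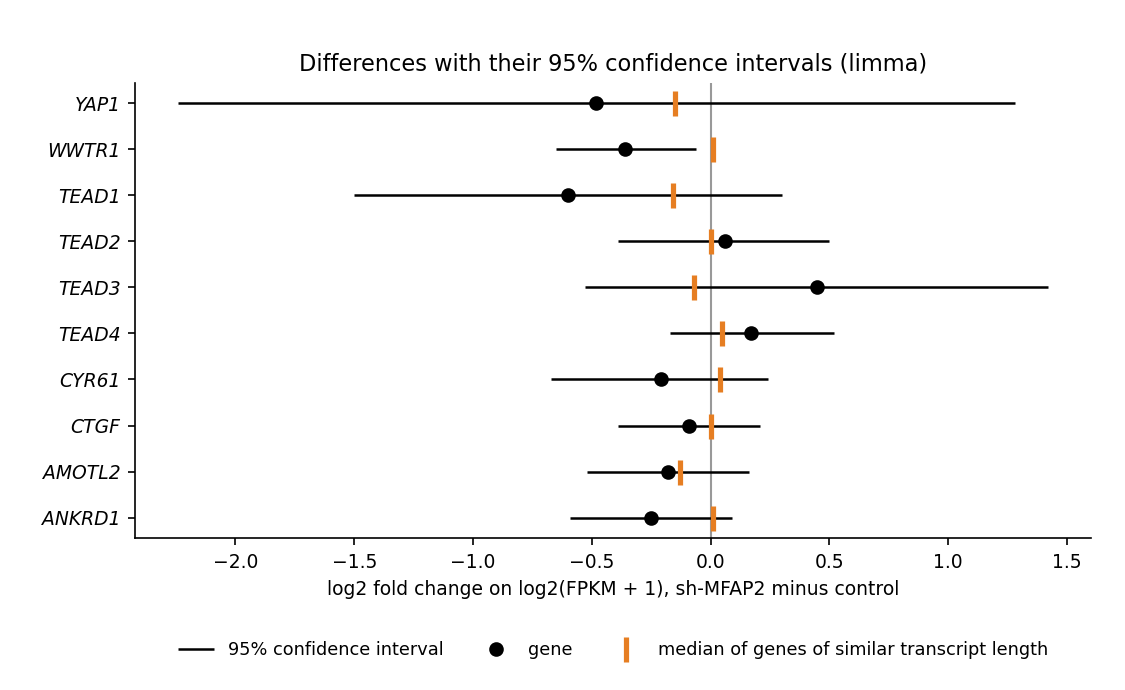
Log2 fold changes of the 10 genes (points) with 95% confidence intervals from limma (lines), and the median of the genes whose mean transcript length lay within 10% of that of the member (orange marks). The interval of WWTR1, from -0.65 to -0.06, is the 1 that leaves out 0, and that of YAP1, from -2.24 to 1.28, is the widest.

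Fold changes in these libraries moved with transcript length. The median log2 fold change was 0.14 for the 696 genes with mean transcripts under 1000 bases, and fell step by step to -0.19 for the 485 genes over 8000 bases. For the members the comparison with genes of similar length is therefore given too. It stood at -0.15 for YAP1, -0.16 for TEAD1 and -0.13 for AMOTL2, whose transcripts are long, and between -0.07 and 0.05 for the other 7.

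YAP1 lies on chromosome 11 of GRCh38 (hg38), at chr11:102110461-102233423 on the plus strand. It was listed at 8.01 FPKM with sh-MFAP2 replicate 1 and 19.6 FPKM with sh-MFAP2 replicate 2. In control it was listed at 27.7 FPKM in replicate 1 and 11.6 FPKM in replicate 2. The groups overlapped completely in order, with the lowest value in sh-MFAP2, the highest in control, and the replicates of each group further apart than the means of 13.8 ± 8.19 FPKM with sh-MFAP2 and 19.6 ± 11.4 FPKM in control (SD, n = 2). The log2 fold change was -0.48 (standard error 0.620, limma adjusted p = 0.747). Its sign was decided by single libraries, being 0.12 without sh-MFAP2 replicate 1 and 0.11 when control replicate 1 was left out. The replicate SD of YAP1 was 0.841 on the log2 scale, and 4.08% of the genes tested had a larger one. The implied depth corresponds to about 3070 to 10300 reads of YAP1 per library, and the part of counting error in this spread was not tested.

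The transcript table showed where the YAP1 spread lay. YAP1 has 11 transcripts in the table. Of these, 4 are 5284 to 5398 bases long, and all end at base 102233423, the 3′ end of the gene (YAP1-201, YAP1-202, YAP1-209 and YAP1-210). The other 7 are 785 to 2393 bases long. The long transcripts summed to 6.71 and 18.8 FPKM with sh-MFAP2 replicates 1 and 2, against 28.4 and 9.29 FPKM in the controls, a 4.24-fold range. The short transcripts summed to 8.49 and 13.5 FPKM with sh-MFAP2 against 13.2 and 14.0 FPKM in the controls, a 1.64-fold range. Of the short transcripts, YAP1-208 had 4.10 and 6.76 FPKM with sh-MFAP2 against 6.68 and 7.77 FPKM in control, YAP1-204 had 2.28 and 3.14 against 2.86 and 3.28 FPKM, and YAP1-211 had 1.37 and 1.56 against 1.56 and 1.83 FPKM. In the sum of the short class 3 libraries thus lay close together with sh-MFAP2 replicate 1 below them. The wide spread between the controls was in the sum of the long class. The short YAP1-203, named though its mean was only 0.873 FPKM, also spread. It had 0.415 and 1.63 FPKM with sh-MFAP2 against 1.18 and 0.274 FPKM in control. The division of reads between these overlapping transcripts is an estimate of the authors' program. Long transcripts made up 44.1% and 58.2% of the YAP1 sum in sh-MFAP2 and 68.3% and 39.9% in control. Among 897 genes with both length classes at 1 FPKM or more, 9.70% had a range of the long class at least as wide as that of YAP1. Over these genes the median log2 ratio of long to short transcripts deviated from each gene's mean by -0.07 to 0.13 in the 4 libraries, and the deviation of YAP1 was -0.47 and 0.28 in sh-MFAP2 and 0.89 and -0.71 in control.

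**Figure D3:**
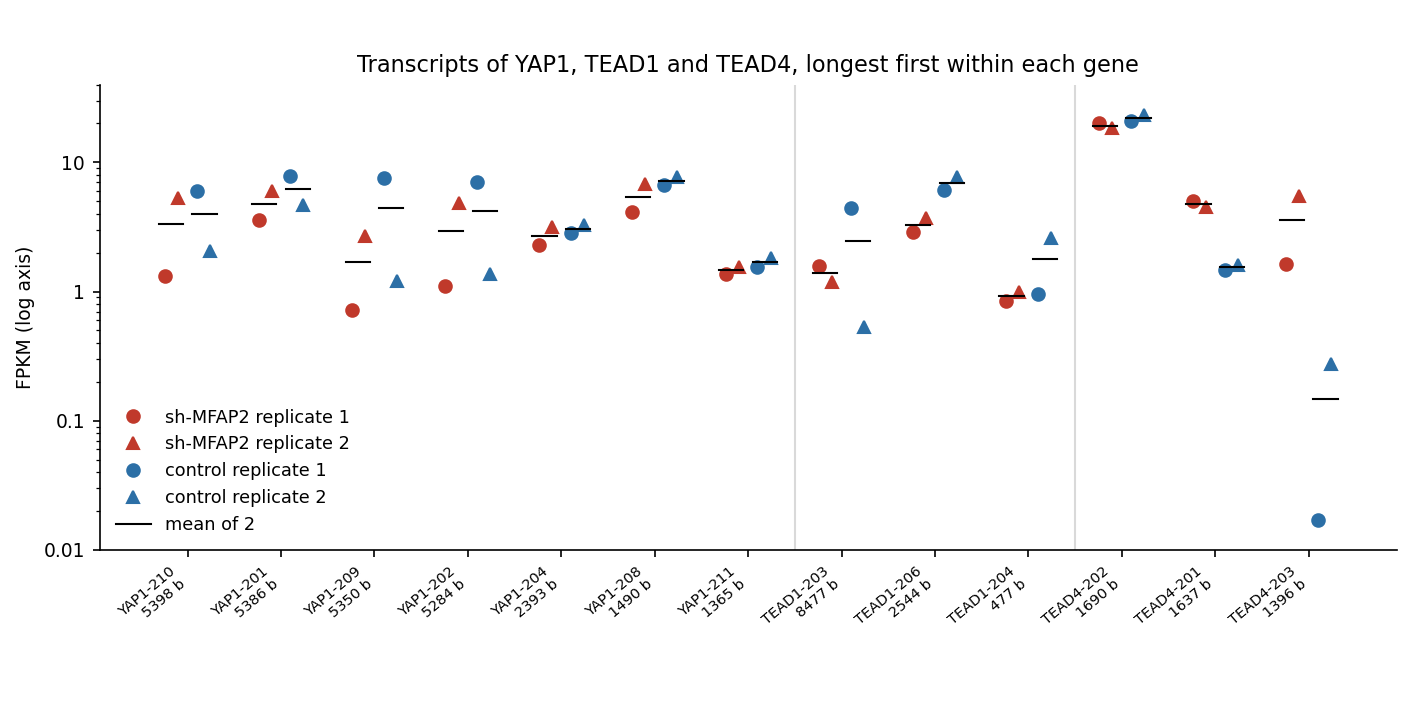
FPKM (log axis) of the transcripts of YAP1, TEAD1 and TEAD4 with a mean of at least 1 FPKM, longest first within each gene, in the 4 libraries, with a line at the mean of each group. The 4 long YAP1 transcripts are widely spread in both groups, while TEAD4-201 and TEAD4-203 are higher in both sh-MFAP2 libraries.

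YAP binds proteins through its WW domains, and YAP1 transcripts differ in whether they encode the second one. The exon of 114 bases that encodes it lies at chr11:102186018-102186131 (GRCh38, plus strand) and is present in YAP1-201 and absent from YAP1-202. It is shown here because it divides the transcripts. The exon is in capitals, with 18 bases of the neighbouring exons on either side in lower case, as read from the GENCODE 29 transcripts.
YAP1-201 across the exon: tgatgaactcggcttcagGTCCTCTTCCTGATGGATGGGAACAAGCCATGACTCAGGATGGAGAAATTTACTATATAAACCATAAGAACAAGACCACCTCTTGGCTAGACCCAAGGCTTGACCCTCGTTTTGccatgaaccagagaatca
YAP1-202 at the same place: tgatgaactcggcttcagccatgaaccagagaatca
Transcripts with this exon made up 66.5% and 69.3% of the YAP1 sum in sh-MFAP2 and 70.4% and 68.7% in control. This share hardly moved between libraries, with a 1.06-fold range, although the sum itself moved from 15.2 to 41.6 FPKM.

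WWTR1, which encodes TAZ, lies at chr3:149517235-149736714 on the minus strand. It was listed at 0.731 and 0.847 FPKM with sh-MFAP2 and at 1.26 and 1.32 FPKM in control. The sh-MFAP2 libraries both lay below the controls, with means of 0.789 ± 0.0820 and 1.29 ± 0.0394 FPKM (SD, n = 2), so that the sh-MFAP2 mean was 61.2% of the control mean. The log2 fold change was -0.36 (95% confidence interval -0.65 to -0.06, limma adjusted p = 0.394). With a pseudocount of 0.1, which compresses low values less, it was -0.65. The main transcript, WWTR1-201, held 94.3% of the sum of transcripts and had 2.89 and 3.23 FPKM with sh-MFAP2 against 4.86 and 5.13 FPKM in control. Its log2 fold change was -0.56 (limma adjusted p = 0.623 over 22312 transcripts). WWTR1 was the member with the fewest reads, about 371 to 819 per library. It was no longer under an unadjusted p of 0.05 with the replicate number as a block, nor without sh-MFAP2 replicate 1, control replicate 1 or control replicate 2.

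The ratio of WWTR1 to YAP1 stayed well below 1. On gene values it was 0.0912 and 0.0432 in sh-MFAP2 and 0.0456 and 0.114 in control, with overlapping groups. On sums of transcripts it was 0.190 and 0.110 in sh-MFAP2 and 0.127 and 0.231 in control. Set against the short YAP1 transcripts only, a comparison chosen after the values were seen, the ratio was 0.340 and 0.263 in sh-MFAP2 and 0.400 and 0.385 in control, both sh-MFAP2 libraries being lower.

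TEAD1 lies at chr11:12674591-12944483 on the plus strand. Its gene value was 2.13 and 2.15 FPKM with sh-MFAP2 and 5.36 and 2.58 FPKM in control. The sh-MFAP2 libraries both lay below the controls, but control replicate 1 stood far above the other 3 libraries. The log2 fold change was -0.60 (95% confidence interval -1.50 to 0.30, limma adjusted p = 0.492), and it was -0.19 without control replicate 1. The transcript TEAD1-203, which has 8477 bases and begins inside the gene at base 12879443, had 4.41 FPKM in control replicate 1 and 0.529 FPKM in control replicate 2, with 1.59 and 1.19 FPKM with sh-MFAP2. TEAD1-206, which begins at the first base of the gene and encodes 426 codons, had 2.89 and 3.68 FPKM with sh-MFAP2 against 6.09 and 7.69 FPKM in control. The TEAD1-206 groups did not overlap, at a log2 fold change of -0.88 (95% confidence interval -1.51 to -0.25, limma adjusted p = 0.553). The short TEAD1-204, of 477 bases, had 0.842 and 1.00 FPKM with sh-MFAP2 against 0.959 and 2.62 FPKM in control, with overlapping groups. The sum of all TEAD1 transcripts was 5.69 and 6.92 FPKM with sh-MFAP2 against 12.4 and 11.6 FPKM in control. In the fit on sums of transcripts its log2 fold change was -0.84 (limma adjusted p = 0.283).

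TEAD2 lies at chr19:49340595-49362457 on the minus strand and was the TEAD gene with the highest level. It had 29.7 and 23.4 FPKM with sh-MFAP2 and 25.2 and 25.3 FPKM in control, so that the sh-MFAP2 libraries lay on either side of the controls. The log2 fold change was 0.06 (95% confidence interval -0.39 to 0.50, limma adjusted p = 0.883). Its largest transcript by level, TEAD2-201, had 14.8 and 20.0 FPKM against 21.2 and 18.7 FPKM. TEAD2-202 had 10.6 and 7.31 FPKM with sh-MFAP2 against 5.40 and 6.58 FPKM in control (log2 fold change 0.49, limma adjusted p = 0.694). TEAD2-204 moved from 2.49 to 10.5 FPKM between the sh-MFAP2 replicates.

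TEAD3 lies at chr6:35473597-35497076 (minus strand). Values were 10.2 and 9.37 FPKM with sh-MFAP2 and 4.80 and 9.79 FPKM in control. The 3 values other than control replicate 1 lay close together. The log2 fold change of 0.45 (95% confidence interval -0.53 to 1.42, limma adjusted p = 0.599) came to -0.00 without control replicate 1. Its main transcript, TEAD3-201, had 10.4 and 9.52 FPKM with sh-MFAP2 against 4.86 and 8.24 FPKM in control (log2 fold change 0.57, limma adjusted p = 0.694).

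TEAD4 lies at chr12:2959330-3040673 on the plus strand. It had 20.2 and 21.1 FPKM with sh-MFAP2 and 17.0 and 19.4 FPKM in control, with both sh-MFAP2 libraries above both controls. The log2 fold change was 0.17 (95% confidence interval -0.17 to 0.52, limma adjusted p = 0.571). Its transcripts did not move together. TEAD4-202, the main transcript with 434 codons, had 20.2 and 18.3 FPKM with sh-MFAP2 against 21.0 and 23.3 FPKM in control (log2 fold change -0.19, limma adjusted p = 0.750). TEAD4-201, with 391 codons, had 5.06 and 4.52 FPKM with sh-MFAP2 against 1.47 and 1.61 FPKM in control. That was a log2 fold change of 1.19 (95% confidence interval 0.67 to 1.71, limma adjusted p = 0.318). TEAD4-203, with 305 codons, had 1.64 and 5.47 FPKM against 0.0170 and 0.275 FPKM (log2 fold change 1.86, limma adjusted p = 0.597).

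As shares of the TEAD4 sum, TEAD4-201 made up 17.8% and 14.5% in sh-MFAP2 and 6.18% and 5.79% in control, and TEAD4-202 made up 70.9% and 58.8% in sh-MFAP2 and 88.4% and 84.1% in control. The groups did not overlap in either share, and how often transcript shares of other genes separate in this way was not counted. TEAD4-201 lacks a coding exon of 129 bases at chr12:3017398-3017526 (GRCh38, plus strand) that TEAD4-202 holds, and otherwise differs from it in the ends of its first and last exons. The exon is shown in capitals, with 18 bases on either side in lower case, from the GENCODE 29 transcripts, because reads over it and over the joined flanks are what tells these transcripts apart.
TEAD4-202 across the exon: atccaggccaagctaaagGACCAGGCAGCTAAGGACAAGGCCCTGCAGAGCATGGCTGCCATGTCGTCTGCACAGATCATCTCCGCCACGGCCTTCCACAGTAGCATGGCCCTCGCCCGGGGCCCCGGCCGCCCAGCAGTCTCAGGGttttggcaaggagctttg
TEAD4-201 at the same place: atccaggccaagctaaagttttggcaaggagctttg
TEAD4-203 lacks another exon, of 255 bases at chr12:2994738-2994992, that holds coding bases of TEAD4-202. TEAD proteins carry the TEA domain, with which they bind DNA, towards the amino terminus. The division of reads between overlapping transcripts is an estimate of the authors' program, and the deposited values carry no error for it.

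Over all members, 25 of the 65 transcripts in the table had a mean of at least 1 FPKM and were tested. None passed p under 0.01 and adjusted p under 0.05 in limma, nor did any of the 22312 transcripts tested (0%), and the lowest adjusted p was 0.318. An unadjusted p under 0.05 was found for 4 of the 25 (TEAD4-201, TEAD1-206, TEAD4-203 and WWTR1-201), compared with 7.64% of all transcripts. The sh-MFAP2 libraries both lay below the controls for 9 of the 25, compared with 24.9% of all transcripts, and above them for 4, compared with 17.8%.

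The make-up of TEAD mRNA was dominated by TEAD2 and TEAD4 in every library. On gene values TEAD2 made up 47.7% and 41.7% of the summed TEAD FPKM with sh-MFAP2 and 48.1% and 44.4% in control. TEAD4 made up 32.4% and 37.7% in sh-MFAP2 and 32.5% and 34.0% in control, so that on gene values these shares overlapped between the groups. The share of TEAD1 was 3.43% and 3.84% in sh-MFAP2 against 10.2% and 4.52% in control. On sums of transcripts it was 6.84% and 8.82% against 16.6% and 13.9%, with a mean of 7.83 ± 1.40% in sh-MFAP2 and 15.3 ± 1.93% in control (SD, n = 2). TEAD1 was thus the smallest share in sh-MFAP2 on either measure, and its share was lower in both sh-MFAP2 libraries than in both controls. On sums of transcripts 2 other shares also separated, both higher in sh-MFAP2. TEAD4 made up 34.2% and 39.7% in sh-MFAP2 against 31.8% and 33.3% in control. TEAD3 made up 12.6% and 12.4% against 6.73% and 12.3%, while the share of TEAD2 overlapped. How often such shares separate among other genes was not counted. The total TEAD level was similar, at 62.2 and 56.0 FPKM with sh-MFAP2 and 52.4 and 57.1 FPKM in control.

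**Figure D4:**
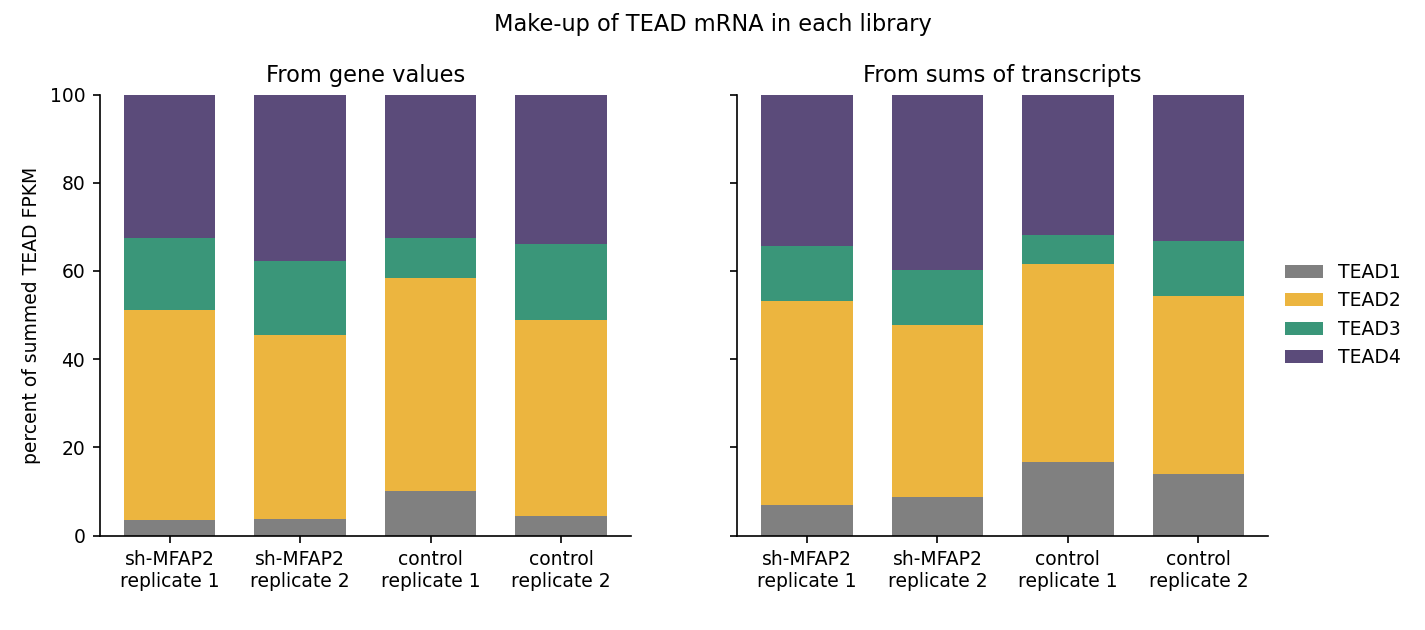
Percent of the summed FPKM of TEAD1 to TEAD4 in each library, from gene values (left) and from sums of transcripts (right), stacked to 100 percent. The TEAD1 band is narrower in both sh-MFAP2 libraries, and control replicate 1 has the narrowest TEAD3 band (9.16% on gene values).

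The 4 target genes were all slightly lower in sh-MFAP2, with log2 fold changes from -0.25 to -0.09, beside 58% lower over all genes tested. No target passed the thresholds. Both sh-MFAP2 libraries lay below the controls for all 4 on values as deposited, beside 31.4% of all genes. CTGF, at chr6:131948176-131951373 on the minus strand, had 77.8 and 74.0 FPKM with sh-MFAP2 and 79.8 and 81.9 FPKM in control. Its log2 fold change was -0.09 (95% confidence interval -0.39 to 0.21, limma adjusted p = 0.719), and its 4 values lay within a 1.11-fold range, the narrowest of the members. CTGF and ANKRD1 each have 1 transcript in the table (CTGF-201 and ANKRD1-201), with the values of the gene. ANKRD1, at chr10:90912096-90921276 on the minus strand, had 40.6 and 46.0 FPKM with sh-MFAP2 and 51.7 and 51.3 FPKM in control. Its means were 43.3 ± 3.86 and 51.5 ± 0.295 FPKM (SD, n = 2), and the log2 fold change was -0.25 (95% confidence interval -0.59 to 0.09, limma adjusted p = 0.466). The ANKRD1 value in sh-MFAP2 was 84.0% of that in control.

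CYR61, which encodes a secreted matricellular protein of the same family as CTGF, lies at chr1:85580761-85583962 on the plus strand. It had 11.0 and 14.1 FPKM with sh-MFAP2 and 15.1 and 14.2 FPKM in control. The groups were separated only by the small step between sh-MFAP2 replicate 2 and control replicate 2 (log2 fold change -0.21, 95% confidence interval -0.67 to 0.24, limma adjusted p = 0.590). The value rested on sh-MFAP2 replicate 1, being -0.04 without that library and -0.38 without sh-MFAP2 replicate 2. Its 3 transcripts had log2 fold changes of -0.16 for CYR61-201, -0.47 for CYR61-202 and -0.21 for a transcript of 1370 bases that GENCODE 29 does not hold. The median over all transcripts tested was -0.04. AMOTL2, which encodes an angiomotin family protein of cell junctions that binds YAP and is itself a target, lies at chr3:134355874-134375479 (minus strand). Values were 5.37 and 4.81 FPKM with sh-MFAP2 and 5.55 and 6.26 FPKM in control (log2 fold change -0.18, 95% confidence interval -0.52 to 0.16, limma adjusted p = 0.560). Genes as long as AMOTL2 had a median of -0.13, close to its own value, and with the length trend removed, an alternative chosen after the data were seen, AMOTL2 had -0.04. AMOTL2-201, its main transcript, had 4.93 and 5.03 FPKM with sh-MFAP2 against 5.70 and 6.31 FPKM in control, and AMOTL2-202 had 2.03 and 1.31 FPKM against 1.61 and 1.81 FPKM.

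The order of the groups in the targets depended on the scaling between libraries. Scaled by quantiles or by the median of ratios, both sh-MFAP2 libraries stayed below both controls for 3 of the 10 members (WWTR1, TEAD1 and ANKRD1), and the groups overlapped for CYR61, CTGF and AMOTL2. Under these scalings 25.2% and 24.8% of all genes had both sh-MFAP2 libraries lower.

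The TEAD core motif was looked for in the promoters of the members, as 300 bases from 250 before to 50 after each start in RefSeq (GRCh38.p14). Windows were found for 7 of the 10 members, 10 windows in all. No window was found for TEAD1, TEAD4 and the target CYR61, so the motif was not looked for there. The letters GGAATG, or CATTCC for the other strand, occurred in at least 1 copy in 14.0% of the 35116 windows of that length. CTGF had 3 copies, beginning 169, 104 and 95 bases before its start, a number or more found in 0.128% of windows. ANKRD1 had 2 copies, at 220 and 128 bases before its start, found in 1.37% of windows with 2 or more. AMOTL2 had 1 copy in 1 of its 2 windows and YAP1 had 1 copy, whereas the windows of WWTR1, TEAD2 and TEAD3 had none of these letters. The stretches of the 3 targets that hold the motif are shown because these genes are read as the output of TEAD, with the motif in capitals.
CTGF, chr6:131951444-131951559, minus strand: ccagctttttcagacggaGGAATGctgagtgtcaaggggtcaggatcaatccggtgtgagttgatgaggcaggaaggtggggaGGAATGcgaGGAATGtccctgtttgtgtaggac
ANKRD1, chr10:90921192-90921325, minus strand: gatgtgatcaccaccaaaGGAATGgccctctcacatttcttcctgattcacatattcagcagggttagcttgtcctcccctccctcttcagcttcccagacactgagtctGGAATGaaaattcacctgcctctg
AMOTL2, chr3:134374493-134374534, minus strand: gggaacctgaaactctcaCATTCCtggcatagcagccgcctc
A match of letters is a description of the window and does not show that TEAD binds there.

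The genes around YAP and TEAD in the pathway were compared from lists written by role. Of 55 other Hippo pathway genes and YAP targets, 41 were tested, 34 with a negative and 7 with a positive log2 fold change, compared with 58% negative over all genes tested. None was among the genes past the thresholds. An unadjusted p under 0.05 was found for 5 of the 41, compared with 12.3% of all genes in either direction. All 5 were lower, and 8.41% of all genes were lower at that limit. The sh-MFAP2 libraries both lay below the controls for 23 of the 41 on values as deposited, compared with 31.4% of all genes tested. This list was not counted under the other scalings, which lowered the share of all genes to 25.2% or 24.8%. The median log2 fold change was -0.18, and with the length trend removed it was -0.06, beside 0.00 for all genes.

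All 8 genes of the kinase core were tested, and all 8 had a negative log2 fold change without passing the thresholds. The median was -0.26, or -0.13 with the length trend removed, and both sh-MFAP2 libraries lay lowest for 6 of the 8, beside the 58% of all genes with a negative value and the 31.4% with both libraries lowest. STK4, the MST1 kinase, had 0.659 and 1.24 FPKM with sh-MFAP2 against 2.15 and 2.14 FPKM in control (log2 fold change -0.71, limma adjusted p = 0.368). MOB1A, an adaptor of the LATS kinases and the core gene with the highest level, had 26.4 and 33.2 FPKM against 36.2 FPKM in each control. The scaffold gene SAV1 had 6.01 and 7.80 FPKM against 7.98 and 8.01 FPKM, and MOB1B had 3.88 and 5.17 FPKM against 5.93 and 5.01 FPKM. In 3 of these 4 genes (MOB1A, SAV1 and STK4) sh-MFAP2 replicate 1 was lowest, sh-MFAP2 replicate 2 next and the controls highest.

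Among 17 upstream regulators, 13 were tested, 11 lower and 2 higher, beside 58% lower over all genes tested. The median was -0.11 and became 0.03 with the length trend removed. TAOK1, a kinase that acts on MST1 and MST2, had 4.38 and 5.19 FPKM with sh-MFAP2 against 6.40 and 6.72 FPKM in control (log2 fold change -0.39, limma adjusted p = 0.394). Its transcripts are long, with a mean of 12365 bases, and with the length trend removed its log2 fold change was -0.19 and its unadjusted p was no longer under 0.05. The kinase gene MAP4K4, with the highest level of this list, had 20.2 and 19.2 FPKM against 22.2 and 22.7 FPKM. The atypical cadherin FAT1 had 17.1 and 15.7 FPKM against 17.0 and 18.2 FPKM, and the LIM protein gene AJUBA had 15.1 and 9.21 FPKM against 9.81 and 9.53 FPKM.

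The list of genes for retention and degradation, mostly 14-3-3 proteins, held 10 genes, all tested. Of these, 8 were lower and 2 higher, beside 58% lower over all genes tested. The median was -0.17, or -0.05 with the length trend removed. YWHAQ, which encodes 14-3-3 theta, had 52.7 and 74.1 FPKM with sh-MFAP2 against 224 and 109 FPKM in control (log2 fold change -1.31, limma adjusted p = 0.396). YWHAE, the gene of this list with the highest level, had 178 and 188 FPKM against 205 and 216 FPKM, and YWHAZ had 74.7 and 97.3 FPKM against 88.3 and 104 FPKM. SFN, which encodes 14-3-3 sigma and is named because it stood out once values were known, had 3.61 and 6.48 FPKM against 2.59 FPKM in control replicate 1 and was listed at 0 in control replicate 2. Of the VGLL cofactors, which compete with YAP for TEAD, VGLL4 had 3.37 and 4.94 FPKM against 5.39 and 2.91 FPKM. VGLL1 had 1.90 and 1.79 FPKM against 1.98 and 2.33 FPKM, and VGLL2 and VGLL3 were listed at 0 in all 4 libraries.

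**Figure D5:**
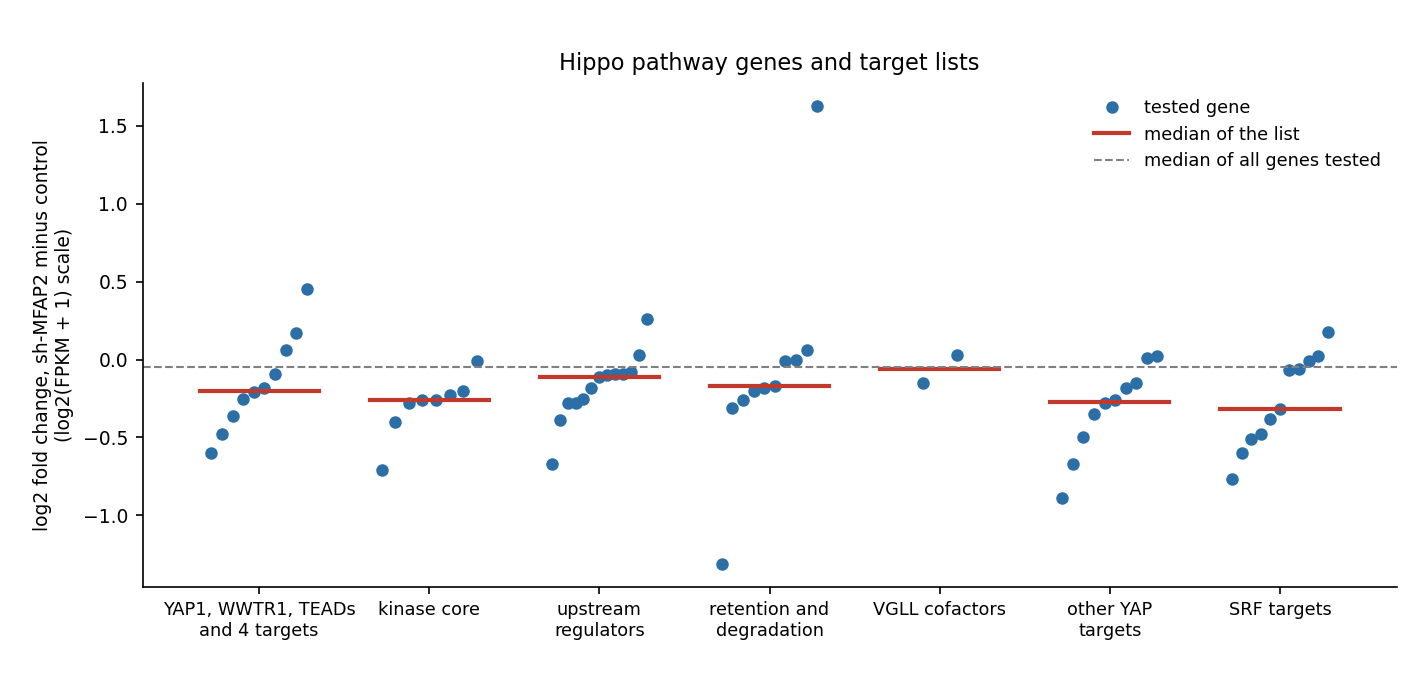
Log2 fold changes (log2(FPKM + 1) scale, sh-MFAP2 minus control) of the tested genes in each list, in order of size within the list, with the list's median in red and the median of all genes tested as a dashed line. The medians of the lists lie between -0.32 and -0.06, and most genes lie within 0.5 of 0.

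Of 18 other YAP target genes, 10 were tested and 8 were lower, beside 58% lower over all genes tested. The median was -0.27, or -0.10 with the length trend removed. F3, which encodes tissue factor, had 3.03 and 3.56 FPKM with sh-MFAP2 against 5.10 and 5.01 FPKM in control. It had the lowest p of the list, under 0.05 without adjustment (log2 fold change -0.50, limma adjusted p = 0.346), and this fold change was the same with the length trend removed. CRIM1, a transmembrane protein gene, had 4.04 and 3.37 FPKM against 5.81 and 10.1 FPKM (log2 fold change -0.89, limma adjusted p = 0.394). MYOF, which encodes the membrane repair protein myoferlin, had 45.0 and 36.0 FPKM against 46.3 and 51.7 FPKM. GADD45A, a stress response gene, had 18.9 and 20.0 FPKM against 19.8 and 18.9 FPKM, with overlapping groups. IGFBP3, FJX1, FOXF2 and RBMS3 were listed at 0 in all 4 libraries.

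Genes driven by SRF, a factor that also reads the actin skeleton and shares targets with YAP, were compared as a list of 12. Of these, 11 were tested, 9 lower and 2 higher, compared with 58% lower over all genes tested. Both sh-MFAP2 libraries lay below the controls for 5 of the 11 (31.4% of all genes) and above them for 1 (17.5%). The median log2 fold change of the list was -0.32, or -0.14 with the length trend removed. ACTB, the gene of beta-actin, had 942 and 584 FPKM with sh-MFAP2 against 1240 and 1286 FPKM in control, and ACTG1 had 452 and 679 FPKM against 798 and 748 FPKM (limma adjusted p = 0.406 for ACTB and 0.479 for ACTG1). ACTN1, which encodes alpha-actinin, had 32.1 and 32.5 FPKM against 40.9 and 44.0 FPKM (log2 fold change -0.38, limma adjusted p = 0.379). TPM1, which encodes a tropomyosin, had 8.00 and 5.62 FPKM against 10.8 and 10.6 FPKM (log2 fold change -0.60, limma adjusted p = 0.394). FLNA, which encodes the actin crosslinker filamin A, had 103 and 75.6 FPKM against 105 and 117 FPKM.

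The genes whose pattern over the 4 libraries was most like that of YAP1, among 61 tested members and list genes, were VGLL4, YWHAB and TEAD1. Their Euclidean distances from YAP1 in log2(FPKM + 1) about each gene's mean were 0.807, 0.857 and 0.883. VGLL4 shares with YAP1 a higher value in sh-MFAP2 replicate 2 than in replicate 1 and in control replicate 1 than in replicate 2, as does YWHAB. TEAD1 shares the order of the controls, while its sh-MFAP2 values were nearly equal, at 2.13 and 2.15 FPKM. This likeness rests on 4 libraries and is a description.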

How the data were processed

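Sequenced RNA of 4 AGS libraries, 2 sh-MFAP2 and 2 control, was grouped by label. The authors deposited a gene table and a table of 180500 transcripts. The tables name no unit, and the deposited values behave as FPKM. The submitters' processing notes name the build hg38. The program and annotation are not given in the sources used here. Depth is not given either. Steps between low values implied the read numbers above, but 56.6% to 57.4% of such values were whole multiples of the step (tolerance 0.05, 10% by chance), so counts were not recovered and no count test or interval for single values was used. The largest multiple searched, 24, was set after seeing the data, and limits from 16 to 32 gave shares of 55.1% to 60% and 54700000 to 74900000 reads.

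Genes, and separately transcripts, with a mean of at least 1 FPKM were compared with limma 3.58.1 (lmFit, then eBayes allowing a mean-variance trend, in R 4.3.3) after a log2(FPKM + 1) transformation, with Benjamini-Hochberg adjustment over all features tested. The study's random variance model shares variance between genes in a like way. The fit was tested on simulated data with planted changes larger than any gene-level difference of a member. Its power for differences as small as those of the members was not tested. Gene coordinates, exons and transcript names are from GENCODE 29 on GRCh38, in which 62 of the 65 member transcripts were found with the same length. Reads per member are length-weighted sums of transcripts times the implied depth. The mean transcript length of a gene weights its transcripts by FPKM times length. Python 3.11.15, pandas 2.3.3, numpy 2.4.6 and matplotlib 3.10.9 were used.

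The members and the lists were chosen with earlier results of these data known. Named are every member, member transcripts with a mean of at least 1 FPKM, the genes of each list with an unadjusted p under 0.05 or among its 3 highest tested levels, and the 3 genes most like YAP1. LATS2 and PTPN14 stand in 2 lists. No set test was made. The alternatives changed the filter (none, or a mean of 5 FPKM), the pseudocount (0.1), the scaling (quantiles, or median of ratios) or the model (replicate block, or no variance trend). Others used sums of transcripts in place of gene values, or left out each library in turn. Removal of a lowess trend on transcript length (span 0.3) and YAP1 without its long transcripts were added after seeing the data.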

Additional observations from a re-analysis of the deposited data

How the results depend on the processing

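No member passed p under 0.01 and adjusted p under 0.05 in limma under any alternative that kept all 4 libraries. With the replicate block 0 of the 9873 genes tested passed, so that setting could not tell the members from other genes. The other alternatives with all libraries called 6 to 28 genes. Of the 90 fits of single members in which the log2 fold change could move, 86 kept their direction. The filters, the fit without a variance trend and the replicate block leave that value as it is and are not counted there. The 4 reversals came from leaving out a library, which gave ranges of -1.08 to 0.12 for YAP1 (0.12 lacking the first sh-MFAP2 library, 0.11 lacking the first control), -0.11 to 0.22 for TEAD2 (-0.11 lacking the first sh-MFAP2 library) and -0.00 to 0.89 for TEAD3 (-0.00 lacking the first control). Against 1 member with an unadjusted p under 0.05 (1214 of 9873 genes) there were 0 with a mean of at least 5 FPKM (670 of 5759 genes), a filter that removes WWTR1. There were 0 with the replicate block (722 of 9873 genes) and 2 with sums of transcripts (WWTR1 and TEAD1, beside 1402 of 10787 genes). Against 4 member transcripts there were 7 with no filter, and the share of all transcripts at that limit without a filter was not counted. Against 6 members with both sh-MFAP2 libraries lower there were 3 with quantile normalization and 3 with median of ratios. Libraries with the same number deviated from their group means with a correlation of -0.0572, so the replicate numbers were not taken to pair the samples. Single genes did split alike by number in both groups, as LYZ did. YWHAG, named once values were known, had 52.8 and 3.59 FPKM with sh-MFAP2 and 58.3 and 5.41 FPKM in control. The source of such splits was not tested. The replicate block moved the genes with an unadjusted p under 0.05 from 1214 to 722.

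Median log2 fold changes moved as follows, with the cause not tested. For the kinase core, -0.26 became -0.20 with quantile normalization, -0.21 with median of ratios and -0.13 with the length trend removed. It became -0.32 with a pseudocount of 0.1 and also with sums of transcripts. For the 4 targets, -0.20 became -0.13 with quantile normalization, -0.13 with median of ratios and -0.16 with the length trend removed. For upstream regulators, -0.11 became -0.16 with a pseudocount of 0.1, -0.05 with median of ratios, 0.03 with the length trend removed and -0.20 with sums of transcripts. For retention and degradation, -0.17 became -0.14 with quantile normalization, -0.11 with median of ratios, -0.05 with the length trend removed and -0.22 with sums of transcripts. For VGLL cofactors, -0.06 became 0.01 with quantile normalization. For other YAP targets, -0.27 became -0.16 with no filter, -0.34 with a pseudocount of 0.1, -0.21 with median of ratios and -0.10 with the length trend removed. For SRF targets, -0.32 became -0.20 with no filter and -0.14 with the length trend removed. With each library left out, the medians ran from -0.23 to -0.14 for the targets, 0.03 to 0.18 for the TEAD genes, -0.40 to -0.12 for the kinase core, -0.15 to -0.13 for upstream regulators, -0.12 to 0.00 for retention and degradation, -0.20 to 0.08 for VGLL cofactors, -0.31 to -0.21 for other YAP targets and -0.40 to -0.10 for SRF targets.

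Shares of summed TEAD FPKM, sh-MFAP2 minus control in percentage points, ran from -6.60 to -0.887 for TEAD1, -4.49 to 1.51 for TEAD2, -0.570 to 7.40 for TEAD3 and -0.818 to 4.45 for TEAD4 with each library left out, the TEAD1 value of -0.887 and the TEAD3 value of -0.570 being those lacking the first control, and TEAD1 had -7.45 with sums of transcripts against -3.74. The difference in the ratio of WWTR1 to YAP1, -0.0123, ran from -0.0463 to 0.0217 with each library left out and was -0.0912 on transcripts without the long ones of YAP1.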
